A study of Mus musculus with 14 samples.

Results

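The cadherins and nonclustered protocadherins are the genes whose symbol is Cdh or Pcdh followed by a number. E-, VE- and M-cadherin (Cdh1, Cdh5 and Cdh15), which mark ectoderm, endothelium and muscle precursors, were set aside. This name rule selected 31 of the 23284 gene symbols in the count tables and used no measured value. The transcripts were counted by RNA-seq in mouse forelimb buds of the NMRI strain, and both forelimb buds of 1 embryo made up 1 replicate. Wild-type embryos were Smad4+/+ PrxCreT/+, collected with 30 somites (E10.0, n=3) or 35 somites (E10.5, n=3). Mutant embryos were Smad4Δ/Δc PrxCreT/+ (n=4 at each stage) and carried a constitutive null allele together with an allele that the Cre recombinase deletes. All 4 groups therefore carried the Prrx1-Cre transgene, which is active in limb bud mesenchyme and spares the ectoderm and endothelium within the same buds. The comparisons asked how the cadherin transcripts differed between genotypes at each stage and between stages within each genotype.

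Cadherins are calcium-dependent adhesion molecules of the plasma membrane. Classical cadherins of type I and type II hold like cells together through their outer domains and are tied to the actin cytoskeleton through β-catenin, α-catenin and p120-catenin. The nonclustered protocadherins are grouped into delta-1 and delta-2 members by their cytoplasmic tails, bind more weakly and are best known from neural development and cell sorting. In limb bud mesenchyme, N-cadherin (Cdh2) and cadherin 11 (Cdh11) are known as the main classical cadherins, and N-cadherin is associated with the condensation of cartilage precursors.

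Between 34066930 and 61691258 reads were counted on genes per embryo. Smad4, the gene deleted in the mutants, fell from 161 ± 8.43 CPM (SD, n=3) to 39.8 ± 4.19 CPM (SD, n=4) at E10.0 and from 166 ± 2.27 to 37.0 ± 3.43 CPM at E10.5. CPM are read counts scaled to library size with TMM factors. Mutant replicates 4 and 5 of both stages stood apart from the other libraries. The ribosomal RNA precursor Rn45s took 1.72% to 8.05% of the reads in these 4 libraries and 0.151% to 0.478% in the 10 others. The other mutant libraries were at 0.151% and 0.456% at E10.0 and at 0.331% and 0.391% at E10.5. As the 4 libraries that stood apart all come from mutants, what set them apart enters every comparison between genotypes. Its cause was not tested. Comparisons of members are therefore also given without these libraries where a call changed. As the buds were not dissociated, fewer cells of a type and less RNA per cell cannot be told apart.

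Of the 31 members, 17 reached at least 1 CPM in at least 3 embryos and were tested. Pcdh19, on the X chromosome, was left out with all genes of chromosomes X, Y and M, and 13 members did not reach the filter. The 3 type I classical cadherins were all tested (Cdh2, Cdh3 and Cdh4), as were 6 of the 12 type II classical cadherins (Cdh6, Cdh10, Cdh11, Cdh20, Cdh22 and Cdh24). Of the 5 other cadherins, T-cadherin (Cdh13), which lacks a cytoplasmic tail, was tested. All 3 delta-1 protocadherins (Pcdh1, Pcdh7 and Pcdh9), 3 of the 5 delta-2 protocadherins (Pcdh10, Pcdh17 and Pcdh18) and Pcdh12 among the 3 other protocadherins were tested.

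Per kilobase of exon, Cdh11 was the most abundant member, with 80.0 ± 9.23 CPM per kb over the 14 embryos. Pcdh18 followed with 40.6 ± 5.05, Cdh3 with 23.0 ± 3.77 and Cdh2 with 16.5 ± 1.66 CPM per kb. These 4 genes together made up 82.7% to 86.8% of the summed CPM per kb of the members in each embryo, and Cdh11 alone 37.4% to 44.8%. The next members were Cdh24 (6.69 ± 1.04 CPM per kb), Cdh6 (4.78 ± 0.756), Pcdh7 (3.46 ± 0.598) and Pcdh12 (3.03 CPM per kb), a protocadherin of endothelial cells. The ranges of Cdh3 (17.5 to 31.2) and Cdh2 (14.5 to 20.6) overlapped over the embryos, whereas the lowest Cdh11 value (61.0) exceeded the highest of Pcdh18 (51.0). Pcdh19 was at 2.66, Pcdh1 at 1.997, Pcdh17 at 1.82 and Pcdh10 at 1.25 CPM per kb, and the other 6 tested members lay between 0.157 (Cdh13) and 0.804 CPM per kb (Cdh4).

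**Figure D1:**
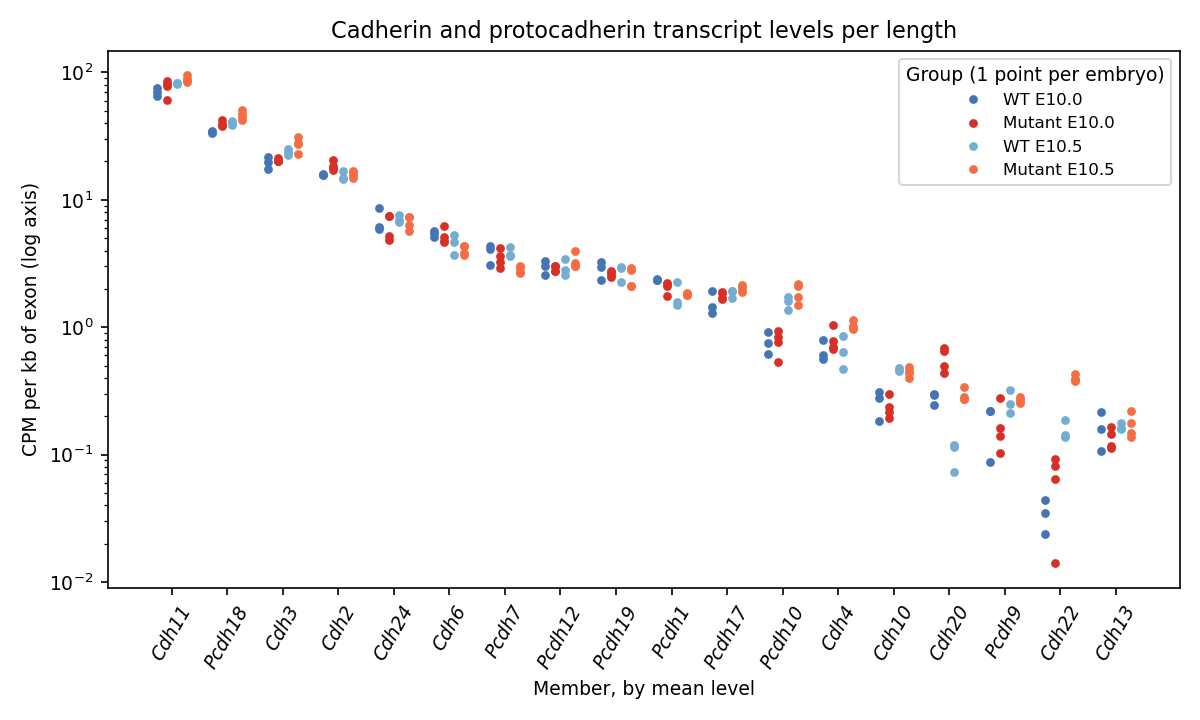
Level of 18 members (the 17 tested and Pcdh19) in CPM per kilobase of exon on a log axis, with 1 point per embryo and colors for the 4 groups. Cdh11 lay between 61.0 and 95.2 CPM per kb in every embryo, and the points of Cdh20 and Cdh22 spread farther between groups than those of the abundant members.

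The other 13 members had 0 to 62 reads per embryo and mean levels of 0.0377 to 0.641 CPM, and 6 of them had no reads in at least 1 library, which allows up to 0.0513 to 0.0977 CPM depending on the library (3 counts, counting error only). They included Cdh16, known from kidney, Cdh17, known from intestine, and the hair cell tip link cadherins Cdh23 and Pcdh15. Cdh26 had the highest mean of these members (0.641 CPM), and Cdh7 the lowest (0.0377 CPM).

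The abundant classical cadherins Cdh11 and Cdh2 were not called between genotypes at either stage. Cdh11, encoded at 105156895 to 105309011 on the minus strand of chromosome 8 (mm9), reached 320.1, 277 and 297 CPM in wild-type replicates 1, 2 and 3 at E10.0, and 339.9, 257, 329 and 359 CPM in mutant replicates 1, 3, 4 and 5. At E10.5, the wild-type embryos were at 349.7, 342 and 352 CPM and mutant replicates 1, 2, 4 and 5 at 401, 370.3, 373 and 354 CPM. The genotypes overlapped at E10.0, whereas at E10.5 the lowest mutant embryo lay just above the highest wild-type embryo. The log2 difference of mutant over wild type was 0.11 ± 0.12 (SE) at the earlier stage and 0.11 ± 0.039 at the later one, and neither passed (adjusted p = 0.633 and 0.869, edgeR exact test, Benjamini-Hochberg adjustment).

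Cdh2, the N-cadherin gene, was at 129, 125 and 127 CPM in wild-type embryos at E10.0 and at 137, 149, 166 and 144 CPM in mutants. At E10.5, the wild-type embryos were at 117, 119 and 135 CPM and the mutants at 137, 126, 133 and 119 CPM. Every mutant lay above every wild-type embryo at E10.0, and the genotypes overlapped at E10.5. Mutants differed by a log2 fold change of 0.23 ± 0.059 at E10.0 (adjusted p = 0.122, edgeR exact test, Benjamini-Hochberg adjustment) and 0.06 ± 0.078 at E10.5 (adjusted p = 0.945), and neither was called. Without mutant replicate 1 of E10.0, Cdh2 was called at that stage with a log2 fold change of 0.28 (adjusted p = 0.0516).

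Pcdh18, the most abundant protocadherin, was higher in every mutant than in every wild-type embryo at each stage, but by less than the required 1.2-fold. Wild-type embryos had 179, 175 and 172 CPM at E10.0, and mutants had 205, 197, 201 and 219.5 CPM. At E10.5, they were at 210.5, 202 and 216 CPM in wild type and 246, 264, 231 and 219 CPM in mutants. The fold was 1.17 at E10.0 (log2 0.23 ± 0.037, adjusted p = 0.0879, edgeR exact test, Benjamini-Hochberg adjustment) and 1.15 at E10.5 (log2 0.20 ± 0.065, adjusted p = 0.299). Without mutant replicates 4 and 5 of both stages, Pcdh18 was called at E10.5 with a log2 fold change of 0.28 (adjusted p = 0.0131).

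At E10.0, 1 of the 17 members tested was called between genotypes at an adjusted p of at most 0.1 and a fold of at least 1.2, and this was Cdh20, which rose. Over all 12393 genes tested the same rule called 6.61%, with 3.33% higher and 3.28% lower in mutants, so that 1 of 17 is a share near that of all genes. The median log2 fold change of the members was 0.0037, beside -0.017 over all genes tested. At E10.5, 4 of the 17 members were called. Cdh20, Cdh22 and Cdh4 rose and Pcdh7 fell, whereas 3.73% of all genes were called, 2.19% higher and 1.54% lower. Cdh22 passed the filter on low counts only through its E10.5 mutant values, so that its place among these 4 is not independent of that rise. The members' median was 0.11 at E10.5 and that of all genes -0.010. By class, 2 of the 6 tested type II cadherins (Cdh20 and Cdh22), 1 of the 3 type I cadherins (Cdh4) and 1 of the 3 tested delta-1 protocadherins (Pcdh7) were called at E10.5, and none of the 3 tested delta-2 protocadherins.

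The promoter windows of Cdh20, Cdh22 and Pcdh10 are shown because SMAD4 is a DNA-binding partner of BMP-activated SMAD proteins. Among the tested members, Cdh20 and Cdh22 had the largest genotype differences, and Cdh22 and Pcdh10 rose most with stage. Each window holds 250 bases before to 50 bases after the RefSeq transcript start in the GRCm38.p6 assembly, 5′ to 3′ on the strand of the gene. It lies at chr1:104768270-104768569 on the plus strand for Cdh20, at chr2:165234688-165234987 on the minus strand for Cdh22 and at chr3:45378148-45378447 on the plus strand for Pcdh10. Capitals mark matches on either strand to the SMAD box CAGAC or to GGCGCC, a GC-rich element bound by BMP SMAD complexes.
Cdh20: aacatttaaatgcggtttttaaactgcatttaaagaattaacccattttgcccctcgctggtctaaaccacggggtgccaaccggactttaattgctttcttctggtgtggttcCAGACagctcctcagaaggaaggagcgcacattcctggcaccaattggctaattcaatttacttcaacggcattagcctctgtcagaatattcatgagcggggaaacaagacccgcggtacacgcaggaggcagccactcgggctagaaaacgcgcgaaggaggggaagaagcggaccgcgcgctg
Cdh22: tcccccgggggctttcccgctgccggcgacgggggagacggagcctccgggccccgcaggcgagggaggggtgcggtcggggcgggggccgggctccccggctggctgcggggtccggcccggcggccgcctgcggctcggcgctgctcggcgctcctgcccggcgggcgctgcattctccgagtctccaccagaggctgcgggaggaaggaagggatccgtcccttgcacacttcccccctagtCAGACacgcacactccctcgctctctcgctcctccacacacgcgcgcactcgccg
Pcdh10: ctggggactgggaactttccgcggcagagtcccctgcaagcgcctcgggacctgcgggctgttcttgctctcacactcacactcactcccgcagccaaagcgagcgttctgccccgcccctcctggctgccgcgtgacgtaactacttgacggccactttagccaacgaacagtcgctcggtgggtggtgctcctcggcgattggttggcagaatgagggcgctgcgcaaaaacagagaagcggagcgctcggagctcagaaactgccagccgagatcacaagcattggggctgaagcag

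CAGAC was found in the windows of Cdh20 and Cdh22, 1 match each, and not in that of Pcdh10. GGCGCC was in none of these 3 windows, and no marked matches overlapped. Of the members, 21 had a window in the table, 24 windows in all. CAGAC occurred in 15 of these 24 windows and in 49.6% of all 32851 windows of this length, and GGCGCC in 2 of the 24 (those of Pcdh8 and Pcdh17) and in 11.9% of all. The G and C content of the window was 50.7% for Cdh20, 76.3% for Cdh22 and 62.3% for Pcdh10. A match of letters is a description and was not tested for binding.

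Cdh20, a type II classical cadherin encoded at 106665106 to 106892058 on the plus strand of chromosome 1 (mm9), was higher in mutants at both stages. At E10.0, wild-type replicates had 1.21, 1.19 and 0.991 CPM and mutants 2.001, 1.75, 2.59 and 2.75 CPM. At E10.5, wild-type embryos had 0.457, 0.295 and 0.481 CPM and mutants 1.37, 1.09, 1.10 and 1.14 CPM. No mutant overlapped a wild-type embryo of its stage, and the range of the mutants at E10.5 overlapped that of the wild type at E10.0. Means rose from 1.13 ± 0.119 to 2.27 ± 0.478 CPM at E10.0 and from 0.411 ± 0.101 to 1.18 ± 0.130 CPM at E10.5 (SD, n=3 and 4). This was a log2 fold change of 0.995 ± 0.18 (SE) at E10.0 and 1.53 ± 0.21 at E10.5, with adjusted p = 0.00121 and 1.16e-05 (edgeR exact test, Benjamini-Hochberg adjustment). These levels rest on 15 to 117 reads per embryo. Mutant replicates 4 and 5 were the highest at E10.0, and without them and their E10.5 counterparts the log2 fold change was 0.73 (adjusted p = 0.0442, edgeR) at E10.0 and 1.59 (adjusted p = 5.87e-05) at E10.5.

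Cdh22, a type II cadherin first described in pituitary gland and brain, lies at 164937007 to 165060353 on the minus strand of chromosome 2 (mm9). It was at 0.128, 0.164 and 0.088 CPM in wild type and at 0.239, 0.0519, 0.300 and 0.344 CPM in mutants at E10.0, from 3 to 14 reads. At E10.5, wild-type embryos had 0.505, 0.687 and 0.525 CPM (21 to 35 reads) and mutants had 1.60, 1.42, 1.44 and 1.40 CPM (43 to 90 reads). The genotypes overlapped at E10.0 and were apart at E10.5, when every mutant had more than every wild-type embryo. At E10.5 Cdh22 rose 2.55-fold in mutants, a log2 fold change of 1.35 ± 0.14 (adjusted p = 2.38e-04, edgeR exact test, Benjamini-Hochberg adjustment). Only the E10.5 mutants reached 1 CPM, so that Cdh22 entered the tested set solely through the group where it was highest. It was also called at E10.5 without the filter on low counts. At E10.0 the log2 fold change was 0.79 ± 0.50 and was not called (adjusted p = 0.327).

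Cdh4, which encodes the type I R-cadherin, lies at 179177136 to 179634078 on the plus strand of chromosome 2 (mm9). It was at 5.74, 4.33 and 4.07 CPM in wild type and 5.06, 4.88, 5.60 and 7.53 CPM in mutants at E10.0. At E10.5, the wild type had 6.13, 3.38 and 4.64 CPM and the mutants had 7.20, 7.43, 8.24 and 7.03 CPM. The mutants lay above the wild type at E10.5 only, and the wild-type embryos at that stage spread more widely than the mutants. Cdh4 rose by a log2 fold change of 0.67 ± 0.25 at E10.5 (adjusted p = 0.0367, edgeR exact test, Benjamini-Hochberg adjustment), and the difference at E10.0 was 0.28 ± 0.21 (adjusted p = 0.479). The call at E10.5 was lost without wild-type replicate 2 (log2 fold change 0.47, adjusted p = 0.488), wild-type replicate 3 (0.66, adjusted p = 0.171) or mutant replicate 4 (0.62, adjusted p = 0.135) of that stage. It was also lost without mutant replicates 4 and 5 of both stages (0.64, adjusted p = 0.112) and under edgeR's quasi-likelihood test (adjusted p = 0.118). An exon of Cdh4 overlaps the same-strand gene model Gm10711, which has no row of its own in the count tables.

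Pcdh7, a delta-1 protocadherin encoded at 58109260 to 58520590 on the plus strand of chromosome 5 (mm9), was the member that fell in mutants. It was at 26.7, 25.5 and 19.2 CPM in wild type and 26.2, 22.6, 20.3 and 18.2 CPM in mutants at E10.0. At E10.5 the wild-type embryos had 22.9, 22.6 and 26.5 CPM and the mutants 16.7, 18.7, 16.6 and 18.1 CPM. All mutants were below all wild-type embryos at E10.5, whereas the genotypes overlapped at E10.0. The log2 fold change was -0.45 ± 0.086 at E10.5 (adjusted p = 0.0292, edgeR exact test, Benjamini-Hochberg adjustment) and -0.12 ± 0.19 at E10.0 (adjusted p = 0.692). The call was lost without wild-type replicate 3 (-0.37, adjusted p = 0.271) or mutant replicate 4 (-0.43, adjusted p = 0.112) of E10.5, and under edgeR's quasi-likelihood test (adjusted p = 0.104). Without mutant replicates 4 and 5 of both stages it was kept at -0.44 (adjusted p = 0.0712), and the uncalled E10.0 value was then 0.037 (adjusted p = 0.892).

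**Figure D2:**
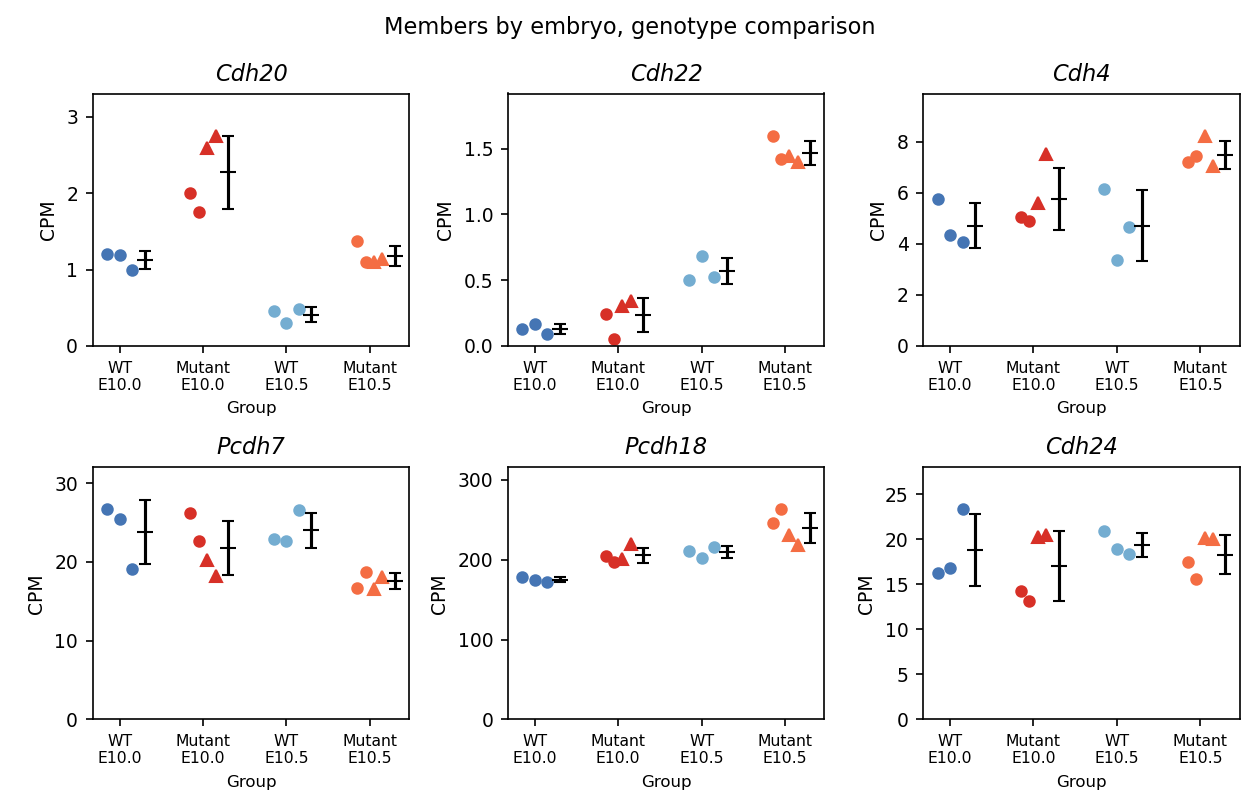
CPM of 6 members in the 4 groups, with 1 symbol per embryo, triangles for mutant replicates 4 and 5, and bars for the mean ± SD (n=3 wild type, n=4 mutant). Cdh20 was higher in every mutant than in every wild-type embryo of its stage, Cdh22 and Cdh4 were so at E10.5, and the triangles of Cdh24 lay above the circles of the mutants.

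Cdh24, a type II cadherin, was not called between genotypes, but its mutant values followed the libraries that stood apart. Mutant replicates 1 and 3 at E10.0 had 14.3 and 13.2 CPM, below the wild-type values of 16.2, 16.8 and 23.3 CPM, whereas replicates 4 and 5 reached 20.2 and 20.5 CPM. At E10.5 the wild-type embryos had 20.9, 18.9 and 18.3 CPM, mutant replicates 1 and 2 had 17.4 and 15.6 CPM, and replicates 4 and 5 had 20.1 and 20.0 CPM. The log2 fold change at E10.0 was -0.14 ± 0.24 (adjusted p = 0.716, edgeR exact test, Benjamini-Hochberg adjustment) with all libraries and -0.45 (adjusted p = 0.0369) without mutant replicates 4 and 5. The opposite-strand gene model CT009512.1 overlaps an exon of Cdh24, and reads of the 2 cannot be told apart in counts made without regard to strand.

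The remaining members were not called between genotypes at either stage. Cdh3 passed at E10.5 without mutant replicate 1 of that stage (0.28, adjusted p = 0.0997), and Pcdh17 at E10.0 without wild-type replicate 1 of that stage (0.38, adjusted p = 0.0825). Among the type I and type II cadherins, the E10.5 log2 fold change was 0.20 ± 0.11 for Cdh3 (adjusted p = 0.490), -0.17 ± 0.17 for Cdh6 and -0.06 ± 0.067 for Cdh10. The delta-2 protocadherins Pcdh10 and Pcdh17 were at 0.26 ± 0.17 and 0.13 ± 0.071. Pcdh1 was lower in every mutant than in every wild-type embryo at E10.0 (-0.19 ± 0.079, adjusted p = 0.484, edgeR exact test, Benjamini-Hochberg adjustment). Pcdh19 was at 29.5 ± 4.72 CPM in wild-type and 27.1 ± 1.31 CPM in mutant embryos at E10.0, and at 27.9 ± 4.02 and 25.7 ± 4.50 CPM at E10.5. In the E10.5 mutants, Pcdh19 was at 30.1 and 29.1 CPM in replicates 1 and 2. It was at 21.8 CPM in each of replicates 4 and 5, below the 23.2 to 30.4 CPM of the wild type. With the X chromosome kept in the table, it was not called in any comparison (log2 fold changes between -0.13 and -0.073). The opposite-strand gene model Gm16795 overlaps an exon of Pcdh19, and reads of both cannot be told apart. Without the filter on low counts, none of the 13 low members was called between genotypes at either stage.

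The genotype effect was not called different between the stages for any of the 17 members (edgeR's quasi-likelihood test of the interaction), beside 0.186% of all genes called. No member reached an unadjusted p under 0.05, and DESeq2 also called 0 of 17. Pcdh7 had the lowest p, and its log2 fold change at E10.5 minus that at E10.0 was -0.33 (adjusted p = 0.942, edgeR quasi-likelihood test, Benjamini-Hochberg adjustment). For Cdh20 this difference of the log2 fold changes was 0.53 (adjusted p = 0.950), for Cdh22 0.56 (adjusted p = 0.957) and for Cdh4 0.39 (adjusted p = 0.950). The calls of Cdh22, Cdh4 and Pcdh7 at E10.5 alone are therefore not shown to be particular to that stage.

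**Figure D3:**
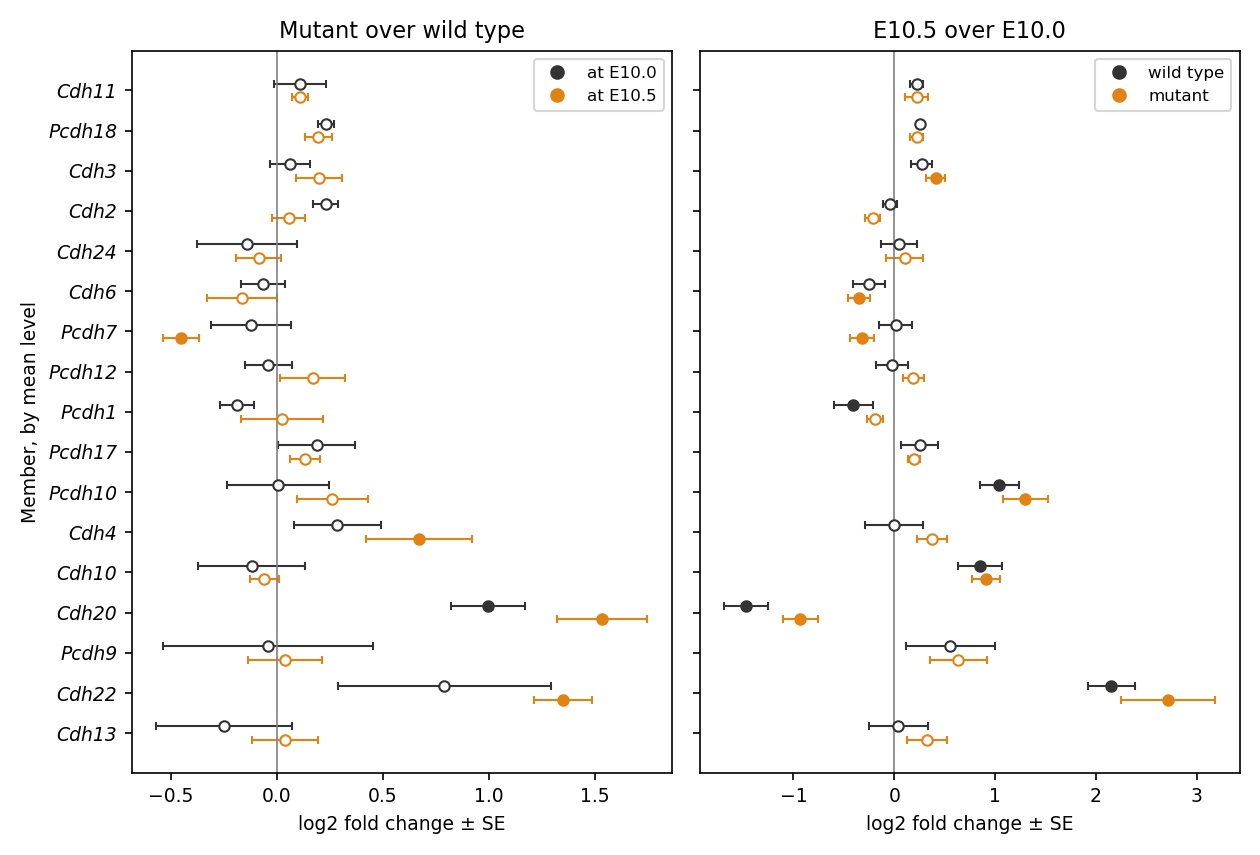
Log2 fold changes ± SE of the 17 tested members, ordered by level, for mutant over wild type at each stage (left) and for E10.5 over E10.0 in each genotype (right). Filled points passed an adjusted p of 0.1 and a fold of 1.2. Cdh20 stands out to the right of 0 at both stages on the left, and Cdh22 reached 2.72 in mutants on the right.

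With stage, 5 of the 17 members were called in wild-type buds and 7 in mutant buds. In wild type, Cdh10, Cdh22 and Pcdh10 rose and Cdh20 and Pcdh1 fell, beside 10.1% of all genes called (5.39% higher and 4.74% lower at E10.5). In mutants, Cdh3, Cdh10, Cdh22 and Pcdh10 rose and Cdh6, Cdh20 and Pcdh7 fell, beside 19.2% of all genes (10.8% higher and 8.4% lower). Cdh22 is among the 17 only through its E10.5 mutant values. With RLE size factors, Cdh3 and Pcdh18 also passed in wild type, so that 5 members rose and 2 fell. Same-numbered mutants of the 2 stages had correlated deviations from their group means. With the replicate number as a block 8 members were called in mutants, the added one being the delta-1 protocadherin Pcdh9 (0.75, adjusted p = 0.0893, edgeR quasi-likelihood test). Without the block Pcdh9 differed by 0.64 ± 0.28 in mutants (adjusted p = 0.144), from 0.381 to 1.03 CPM at E10.0 and from 0.944 to 1.05 CPM at E10.5, which overlapped. The median log2 change of the members was 0.046 in wild type and 0.22 in mutants, and that of all genes -0.0086 and -0.0050. The genotype and stage comparisons share embryos, and their members are therefore given side by side only. By class, 2 type II cadherins rose in each genotype, and 1 fell in wild type and 2 in mutants.

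Cdh22 had the largest change with stage of the 17 members in both genotypes. Its mean went from 0.127 ± 0.0378 to 0.572 ± 0.1001 CPM in wild type and from 0.234 ± 0.129 to 1.47 ± 0.0905 CPM in mutants, and in each genotype every E10.5 embryo was above every E10.0 embryo. The log2 change was 2.15 ± 0.23 in wild type (adjusted p = 1.47e-05, edgeR exact test, Benjamini-Hochberg adjustment) and 2.72 ± 0.47 in mutants (adjusted p = 5.3e-17). Cdh20 moved the other way. It fell by 1.47 ± 0.22 on the log2 scale in wild type (adjusted p = 5.22e-05, same edgeR test) and by 0.93 ± 0.17 in mutants (adjusted p = 2.04e-04), again with no overlap between stages. Without mutant replicates 4 and 5 of both stages, the decrease of Cdh20 in mutants was -0.60 and was not called (adjusted p = 0.159), while that of the wild type was -1.46 (adjusted p = 3.16e-05).

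Pcdh10, also known as OL-protocadherin, lies at 45182320 to 45238488 on the plus strand of chromosome 3 (mm9) and was the delta-2 member that rose with stage in both genotypes. It was at 9.72, 6.56 and 7.99 CPM in wild type at E10.0 and at 14.5, 18.5 and 17.0 CPM at E10.5. In mutants it was at 8.12, 5.63, 8.88 and 9.94 CPM at E10.0 and at 23.2, 22.6, 18.2 and 15.8 CPM at E10.5. The stages did not overlap in either genotype, and mutant replicates 4 and 5 were the highest mutants at E10.0 and the lowest at E10.5. Pcdh10 rose 2.06-fold in wild type (log2 1.04 ± 0.19, adjusted p = 1.09e-05, edgeR exact test, Benjamini-Hochberg adjustment) and 2.46-fold in mutants (log2 1.30 ± 0.22, adjusted p = 3.77e-12). Without mutant replicates 4 and 5 the log2 change in mutants was 1.74 (adjusted p = 6.37e-15).

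Cdh10, a type II cadherin known mainly from brain, rose with stage in both genotypes at a low level. Wild-type embryos had 1.10, 0.654 and 0.991 CPM at E10.0 and 1.61, 1.67 and 1.69 CPM at E10.5. Mutants had 1.06, 0.692, 0.765 and 0.836 CPM at E10.0 and 1.74, 1.41, 1.64 and 1.56 CPM at E10.5. All E10.5 embryos lay above all E10.0 embryos, from 28 to 98 reads. The log2 change was 0.85 ± 0.22 in wild type (adjusted p = 0.0119, edgeR exact test, Benjamini-Hochberg adjustment) and 0.91 ± 0.14 in mutants (adjusted p = 3.7e-04). In wild type the call was lost without replicate 2 of E10.0, which had the lowest value (0.66, adjusted p = 0.199).

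Cdh3, the P-cadherin gene, is known from ectoderm and other epithelia. It was at 87.1, 69.8 and 78.5 CPM in wild type at E10.0 and at 95.3, 89.1 and 100.5 CPM at E10.5. In mutants it went from 81.3, 81.2, 85.1 and 80.0 CPM to 90.8, 109, 125 and 111 CPM. The stages were apart in both genotypes, and the E10.5 mutants spread more than any other group. Cdh3 rose by 0.41 ± 0.097 on the log2 scale in mutants (adjusted p = 2.13e-04, edgeR exact test, Benjamini-Hochberg adjustment). In wild type the change was 0.27 ± 0.10 and missed the call (adjusted p = 0.103), which it passed under several alternatives. Among them were DESeq2 (0.28, adjusted p = 0.0830), the fit of the 2 groups alone (0.28, adjusted p = 0.0264), the fit without mutant replicates 4 and 5 (0.28, adjusted p = 0.0336), the replicate block (0.27, adjusted p = 0.0749) and the fit without wild-type replicate 1 of E10.0 (0.36, adjusted p = 0.0498). It did not pass under edgeR's quasi-likelihood test (adjusted p = 0.124). Of the 7 ectoderm markers, which include Cdh1, Krt5 rose and Trp63 fell with stage in mutants, and none was called in wild type. The summed level of these markers was 187 to 259 CPM in mutants at E10.0 and 163 to 237 CPM at E10.5, and their part in the Cdh3 change was not tested.

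The other calls with stage were small. Cdh6, which encodes the type II K-cadherin, was at 12.3, 12.5, 13.4 and 16.3 CPM in mutants at E10.0 and 11.5, 9.78, 11.3 and 10.1 CPM at E10.5. The stages were apart, and the change was -0.35 ± 0.11 (adjusted p = 0.0400, edgeR exact test, Benjamini-Hochberg adjustment). In wild type Cdh6 was at 15.02, 14.4 and 13.4 CPM and then at 14.01, 9.70 and 12.3 CPM, which overlapped (-0.25 ± 0.16, adjusted p = 0.336). The call in mutants was lost without replicate 5 of E10.0 (-0.25, adjusted p = 0.186), replicate 2 (-0.31, adjusted p = 0.138) or replicate 5 of E10.5 (-0.33, adjusted p = 0.113), and without mutant replicates 4 and 5 of both stages (-0.22, adjusted p = 0.450).

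Among the delta-1 protocadherins, Pcdh1 fell in wild type and Pcdh7 in mutants. Pcdh1 was at 19.7, 20.1 and 20.0 CPM in wild type at E10.0 and 19.2, 12.5 and 13.4 CPM at E10.5, so that replicate 1 of E10.5 lay close to the E10.0 embryos. In mutants it was at 14.9, 17.95, 18.8 and 18.5 CPM and then at 15.1, 15.2, 15.3 and 15.6 CPM, which overlapped. The change in wild type was -0.41 ± 0.19 (adjusted p = 0.0570, edgeR exact test, Benjamini-Hochberg adjustment). It was lost without wild-type replicate 1 (-0.41, adjusted p = 0.105), 2 (-0.40, adjusted p = 0.221) or 3 (-0.40, adjusted p = 0.152) of E10.0 and without replicate 2 (-0.29, adjusted p = 0.318) or 3 (-0.33, adjusted p = 0.383) of E10.5. Pcdh7 fell by 0.32 ± 0.12 in mutants (adjusted p = 0.0581, same edgeR test), and the stages overlapped. This call was lost without mutant replicate 1 (-0.21, adjusted p = 0.220) or 3 (-0.30, adjusted p = 0.143) of E10.0 and without replicate 1 (-0.29, adjusted p = 0.132) or 4 (-0.29, adjusted p = 0.138) of E10.5. Without mutant replicates 4 and 5 of both stages it was -0.46 (adjusted p = 0.0282).

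**Figure D4:**
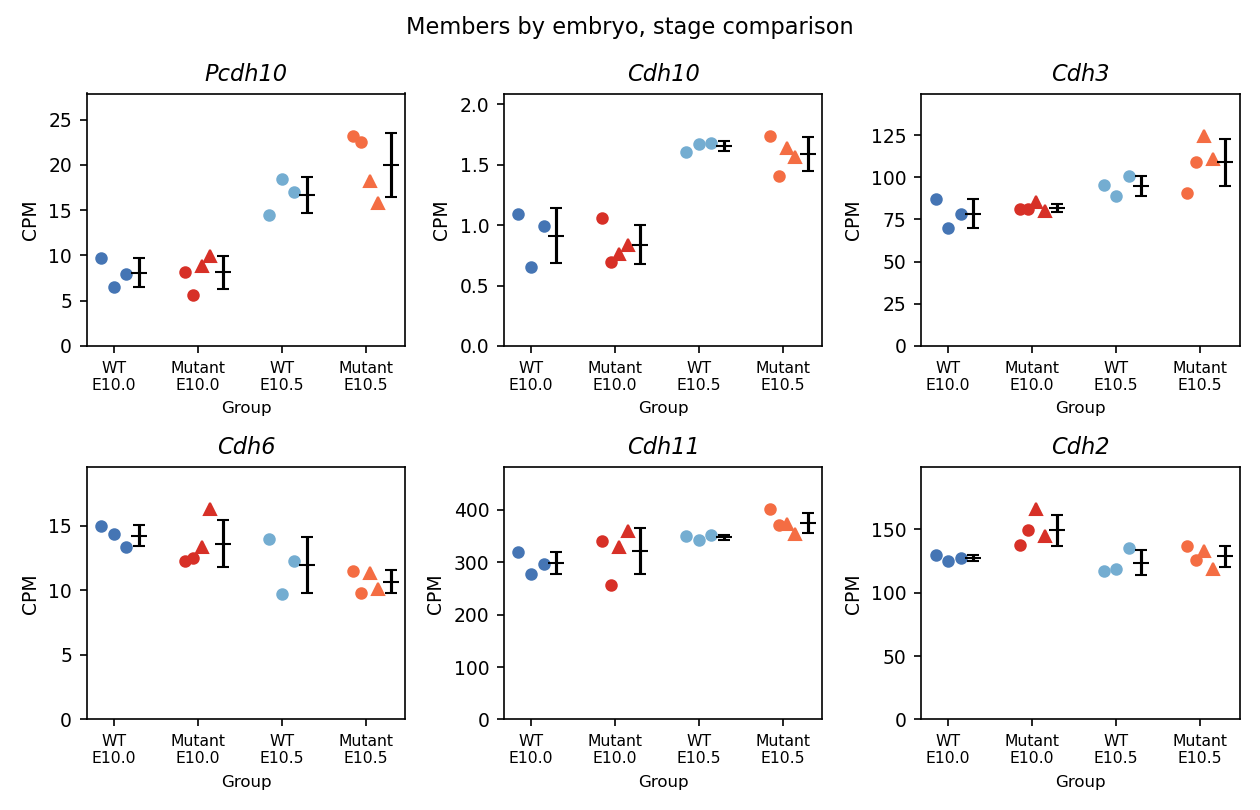
CPM of 6 members in the 4 groups, with 1 symbol per embryo, triangles for mutant replicates 4 and 5, and bars for the mean ± SD (n=3 wild type, n=4 mutant). Pcdh10 and Cdh10 were higher in every E10.5 embryo than in every E10.0 embryo, and Cdh11 and Cdh2 varied less in proportion.

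The abundant Cdh11 and Pcdh18 stayed under the 1.2-fold limit with stage. Cdh11 differed by 0.22 ± 0.061 in wild type (adjusted p = 0.210, edgeR exact test, Benjamini-Hochberg adjustment) and by 0.22 ± 0.11 in mutants (adjusted p = 0.0788). Pcdh18 differed by 0.26 ± 0.034 in wild type (adjusted p = 0.0498) and by 0.22 ± 0.067 in mutants (adjusted p = 0.0257). In wild type, where its fold lay close to the limit, Pcdh18 was called under DESeq2 (0.27, adjusted p = 0.00487), without the filter on low counts (0.27, adjusted p = 0.0486) and without replicate 1 of E10.0 (0.27, adjusted p = 0.0950) or replicate 2 of E10.5 (0.29, adjusted p = 0.0815), and in mutants Cdh11 was called without replicate 5 of E10.0 (0.28, adjusted p = 0.0300). Without mutant replicates 4 and 5 of both stages, both genes were called in mutants, at 0.37 for Cdh11 (adjusted p = 0.0141) and 0.34 for Pcdh18 (adjusted p = 0.00111). Cdh2 differed by -0.21 ± 0.073 in mutants (adjusted p = 0.0480), also under the fold limit, and differed by -0.04 ± 0.065 in wild type.

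Of the 13 members below the expression filter, 3 were called with stage once the filter was removed. Cdh19 was called in both genotypes, and Cdh8 and Pcdh8 were called in mutants alone. Over all genes, the same test without the filter called 1268 with stage in wild type and 2632 in mutants. The share of all genes in that fit is not given here, and with the filter it was 10.1% and 19.2%. The 3 calls are therefore not read as a result about the low members as a set. Cdh19, a type II cadherin of neural crest-derived Schwann cell precursors, had 0, 0 and 1 reads in wild type at E10.0 and 6, 12 and 14 reads at E10.5 (adjusted p = 0.00818, edgeR exact test, Benjamini-Hochberg adjustment). In mutants it had 0, 2, 2 and 7 reads and then 46, 10, 8 and 1 reads (adjusted p = 0.0377), and the stages overlapped. Of the neural crest and Schwann cell precursor markers under the filter, Foxd3 rose in both genotypes and Sox10 in wild type. Sox10 went from 0.138 ± 0.0907 to 0.800 ± 0.294 CPM in wild type, where it was called once the filter was removed (adjusted p = 0.0439, edgeR exact test), and from 0.389 ± 0.403 to 1.07 ± 0.608 CPM in mutants, where it was not (adjusted p = 0.133). Foxd3 had no reads in wild type at E10.0 and 3 to 9 reads at E10.5 (adjusted p = 0.0159, edgeR exact test), and in mutants it went from at most 2 reads to 2 to 22 reads (adjusted p = 0.00254). The summed level of the 6 markers was 29.8 to 35.6 CPM in mutants at E10.0 and 33.5 to 38.0 CPM at E10.5, and Tfap2a and Erbb3, which made up most of it, were not called with stage. The part of these cells in the Cdh19 counts was not tested. Cdh8, another type II cadherin, and the delta-2 protocadherin Pcdh8 rose in mutants with log2 changes of 1.55 (adjusted p = 5.9e-05) and 1.80 (adjusted p = 1.61e-05). In wild type both changed in the same direction without a call, by 0.52 for Cdh8 (adjusted p = 0.527, edgeR exact test) and 0.99 for Pcdh8 (adjusted p = 0.122). Cdh8 rested on 8 to 62 reads per embryo, its exons overlap the opposite-strand gene model Gm15679, and the 2 cannot be told apart. Pcdh8 rested on 3 to 54 reads.

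Among 14 cytoplasmic partners of cadherins, 13 were tested. The catenins that bind classical cadherins were not called in any comparison between genotypes, with Ctnnb1 (β-catenin) at 1626 CPM in wild-type and 1586 CPM in mutant embryos at E10.0 and a log2 fold change of -0.036 ± 0.070. Ctnna1 (α-catenin) and Ctnnd1 (p120-catenin) differed by 0.056 ± 0.086 and 0.11 ± 0.024 at E10.0. At E10.0, 3 partners rose in mutants. These were Vcl (vinculin, 0.29 ± 0.072, adjusted p = 0.0961), Mllt4 (afadin, 0.27 ± 0.11, adjusted p = 0.0950) and Cttnbp2 (0.60 ± 0.14, adjusted p = 4.33e-04; edgeR exact test, Benjamini-Hochberg adjustment), which is known to bind cortactin and not a cadherin. Under edgeR's quasi-likelihood test Cttnbp2 kept its call (adjusted p = 0.0191), and Vcl (adjusted p = 0.132) and Mllt4 (adjusted p = 0.118) lost theirs. At E10.5, Cttnbp2 alone rose, from 17.5 to 35.2 CPM (1.01 ± 0.12, adjusted p = 6.12e-12). With stage, Ctnna2 rose in wild type (0.61 ± 0.19), and in mutants Cttnbp2 rose (0.69 ± 0.12) and Mllt4 fell by 0.30 ± 0.037.

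Of 10 other large cadherins, 9 were in the files and 7 were tested. Fat4, a giant cadherin that binds Dchs1 in planar polarity, rose in mutants at E10.0 from 40.5 to 77.7 CPM (log2 0.94 ± 0.28, adjusted p = 2.24e-05, edgeR exact test, Benjamini-Hochberg adjustment) and at E10.5 from 54.3 to 77.6 CPM (0.52 ± 0.22, adjusted p = 0.0907). Fat3 rose at E10.0 (0.67 ± 0.32, adjusted p = 0.0326) and was at 0.12 ± 0.25 at E10.5. With stage, Celsr2 fell in wild type (-0.43 ± 0.24, adjusted p = 0.0874) and Fat2 in mutants (-0.63 ± 0.24, adjusted p = 0.0393). Under edgeR's quasi-likelihood test Fat4 at E10.5 (adjusted p = 0.262), Fat3 (adjusted p = 0.111) and Celsr2 (adjusted p = 0.112) were not called.

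Of the 3 cadherins set aside, Cdh1 averaged 52.2 CPM in wild-type and 46.2 CPM in mutant embryos at E10.0, Cdh5 averaged 84.6 and 87.9 CPM, and neither was called between genotypes at either stage. Cdh15, the muscle precursor cadherin, rose in mutants at E10.0 from 0.530 to 1.14 CPM (log2 1.09 ± 0.30, adjusted p = 0.0479, edgeR exact test, Benjamini-Hochberg adjustment) and was not called at E10.5 (-0.60 ± 0.44). The E10.0 call was lost under edgeR's quasi-likelihood test (adjusted p = 0.118).

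Markers of the cell types of the bud, the limb mesenchyme in which Smad4 is deleted among them, moved with genotype beside the cadherin results. Their part in those results was not tested. Of 5 limb mesenchyme markers, 4 fell in the E10.0 mutants and 3 in the E10.5 mutants. Under edgeR's quasi-likelihood test Prrx2 and Twist1 kept these calls at both stages, whereas Prrx1 (adjusted p = 0.122 and 0.136) and Tbx5 (adjusted p = 0.118 at E10.0) lost theirs. Their summed level was 1037 to 1196 CPM in wild type and 840.3 to 966 CPM in mutants at E10.0, and 1222 to 1281 CPM and 962 to 1050.1 CPM at E10.5. Of 5 mesothelium markers, 4 were tested. Wt1 and Upk3b rose in mutants at E10.0, where the sum went from 6.96 to 10.2 CPM in wild type to 13.4 to 24.8 CPM, and fell at E10.5, where it was 9.997 to 12.9 CPM in wild type and 5.76 to 9.41 CPM in mutants. The E10.5 decreases of Wt1 and Upk3b were lost under the quasi-likelihood test (edgeR, adjusted p = 0.123 and 0.271). Of 5 macrophage markers, 3 were tested and 2 rose in mutants at E10.0 (2.02 to 4.46 CPM in wild type and 5.71 to 7.08 CPM in mutants), and none was called at E10.5. Of these 2, Ptprc lost its call under the quasi-likelihood test (edgeR, adjusted p = 0.123) and Cx3cr1 kept it. Msln and Emr1 of these lists had no reads in at least 1 library. Of the 7 ectoderm markers, Krt5 fell at E10.0 (-0.40 ± 0.093, adjusted p = 0.0485, edgeR exact test), and of the 5 tested neuronal markers Isl1 rose at E10.0 (1.32 ± 0.43, adjusted p = 0.0300). Both calls were lost under the quasi-likelihood test (edgeR, adjusted p = 0.107 and 0.112). The neural crest marker Erbb3 fell at E10.5 (-0.42 ± 0.032, adjusted p = 0.0394, edgeR exact test) and did so under the quasi-likelihood test (edgeR, adjusted p = 0.0391). None of the 7 endothelial markers was called between genotypes, and 2 of the 5 tested muscle precursor markers (Cdh15 and Myf5) rose at E10.0. In the body wall and sclerotome list Pax1 was the tested marker and fell in mutants at both stages, and Nkx3-2 had at most 1 read in a library. With stage, the 3 tested macrophage markers rose in both genotypes.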

How the data were processed

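The authors prepared polyA libraries from the pooled forelimb buds of each embryo, sequenced them as unstranded single reads, aligned them to mm9 with TopHat v2.0.13 (TopHat2 2.0.13 in the submitters' processing notes) and counted the uniquely mapped ones by gene with htseq-count. The deposited values are these raw counts, 34066930 to 61691258 reads on genes per embryo; ambiguous reads (1.49% to 1.75%) were not counted.

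Here, 1041 symbols on chromosomes X, Y or M were dropped, and the test covered the 12393 genes that reached 1 CPM in 3 or more of 14 samples. As in the study's methods, edgeR (4.0.16, R 4.3.3) normalized by TMM, estimated common and tagwise dispersions (prior of 10 degrees of freedom) and compared groups by its exact test at a Benjamini-Hochberg adjusted p of at most 0.1 and a fold of at least 1.2. The interaction was tested by quasi-likelihood. CPM refer to the reads on tested genes. The SE of a log2 fold change comes from the replicate variances of log2 CPM with a prior count of 2. Levels per kb use exon lengths of NCBIM37, which is mm9. Promoter windows are from RefSeq.

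Members called in any comparison, the 4 highest per kb, Cdh2 and Cdh11 are given by embryo. The members and lists were chosen with earlier results of these data known. Alternatives were the quasi-likelihood test, DESeq2 (1.42.0), RLE size factors, no filter, 2-group fits, chromosomes X, Y and M kept, mutant replicates 4 and 5 left out, each sample left out and a replicate block. The tests were tried on simulated counts. Replicates differed by more than sampling noise (chi-square per degree of freedom of at least 14), and none were merged. The labels name no shared source for a replicate number. Correlations of same-numbered samples' deviations from their group means were 0.214 to 0.556 over the 3 mutant pairs between stages. All were over 0.1, so that these were taken as paired. They were -0.23 to -0.048 over the 3 wild-type pairs, which were not. Different-numbered samples of 1 genotype reached 0.298 between stages, above the lowest mutant pair. Mutant replicates 4 and 5 stood apart at both stages, and their part in these correlations was not tested. The block was fitted to all samples, wild-type ones included.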

Additional observations from a re-analysis of the deposited data

Results flagged for a closer look

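In groups of 4 embryos, 2 values stood far from the others by Dixon's 95% criterion, out of 38 groups checked, and chance marks about 1 group in 20. Cdh20 was at 1.37 CPM in mutant replicate 1 of E10.5, against 1.09 to 1.14 CPM in the other mutants of that stage. Smad4 was at 45.98 CPM in mutant replicate 3 of E10.0, against 36.9 to 38.4 CPM in the other mutants of that stage.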

How the results depend on the processing

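At E10.0, 1 member was called between genotypes, 2 without mutant replicates 4 and 5 of both stages, 3 with the replicate number as a block, and 1 to 2 with each sample left out. At E10.5, 4 members were called, 2 under the quasi-likelihood test, 1 with the replicate block and 2 to 5 with each sample left out. In wild type 5 were called with stage and 3 to 7 with each sample left out, and in mutants 7, and 6 to 8. The interaction stayed at 0 members under every alternative run, with 0 to 3 at an unadjusted p under 0.05. No called change of a member reversed its direction under the alternatives run. Uncalled changes were followed without mutant replicates 4 and 5, where those of Pcdh7 (-0.12 to 0.037), Pcdh9 (-0.043 to 0.10) and Pcdh10 (0.0037 to -0.24) between genotypes at E10.0 changed sign. Cdh20 was called between genotypes at both stages under every alternative run, with log2 fold changes of 0.73 to 1.11 at E10.0 and 1.33 to 1.67 at E10.5.

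The replicate block kept Cdh20 at E10.5 and lost Cdh22 (1.04, adjusted p = 0.183), Cdh4 (0.54, adjusted p = 0.228) and Pcdh7 (-0.38, adjusted p = 0.252), and added Cdh24 (-0.39) and Pcdh18 (0.27) at E10.0. Same-numbered embryos of the 2 genotypes at a stage had a mean correlation of deviations of -0.0824 over 4 pairs (-0.212 to 0.141), so that the numbers give no pairing between genotypes. Between stages, 0 of 6 wild-type and 5 of 6 mutant samples correlated best with their own number. With stage the block added Cdh3 in wild type (6 members called) and Pcdh9 in mutants (8 called), and no called member lost its call.

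Over all genes, 819 were called at E10.0, 2003 without mutant replicates 4 and 5, 1961 with the block, 499 without mutant replicate 5 and 256 without wild-type replicate 3. At E10.5 462 became 280 with the block and 282 without wild-type replicate 2. In wild type with stage 1256 became 1989 in the 2-group fit, and 484 or 835 without replicate 2 or 3 of E10.0 and 812 or 521 without replicate 2 or 3 of E10.5. The interaction called 23 genes, 87 under DESeq2, 39 without the filter, 6 without mutant replicates 4 and 5, and 7 to 35 with each sample left out. The cause was not tested. With stage in mutants, Pcdh9 was added without mutant replicate 1 of E10.0 (1.01, adjusted p = 0.0117), and Cdh4 without mutant replicate 5 of E10.0 (0.53, adjusted p = 0.0288). Calls of members under 3 CPM rest on few reads, and leaving out 1 library leaves 2 or 3 embryos in its group.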
